A study of Mus musculus with 13 samples.

Results

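Runx1, Runx3, Etv1, Etv4, Maf, Mafa and Shox2 are transcription factors of sensory neurons, and their transcripts were followed here in single neurons of the mouse dorsal root ganglion (DRG), sorted by proprioceptor reporters, from E14.5 to the adult. The 7 genes were chosen by name out of the 50508 gene rows of the plate count tables. Of those rows, 27777 had at least 1 UMI in a neuron kept for analysis, and 6 of the 7 genes did. Mafa was the exception, with 0 UMIs.

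Proprioceptors innervate muscle spindles and Golgi tendon organs and report muscle length and tension to the spinal cord. Runx3 is a Runt-domain factor needed by TrkC-expressing proprioceptors, and its paralog Runx1 is best known from nociceptors. Both bind DNA together with the shared partner Cbfb. Etv1 (Er81), an ETS factor, is known for its part in the central connections and survival of proprioceptors, and its relative Etv4 (Pea3) is best known from motor neuron pools. Maf (c-Maf) and Mafa are large Maf basic leucine zipper factors of low threshold mechanoreceptors, and Shox2 is a homeodomain factor of TrkB and TrkC mechanosensory neurons.

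Single neurons were sorted into 96-well plates and sequenced by Plate-seq, a method that tags each well's transcripts with a barcode and each molecule with a UMI. The adult (5 plates), P12 (4 plates) and P0 (2 plates) neurons came from PV:Cre+/-;Rx3:Flp+/-;Ai65+/- mice. In these mice tdTomato marks cells that expressed both parvalbumin and Runx3 at any time. The E14.5 neurons (2 plates) came from TrkC:tdTomato mice, so that stage and reporter genotype cannot be told apart in any comparison with E14.5. Adults were older than P56, and the study's methods give 6 adult, 4 P12, 6 P0 and 2 E14.5 animals of either sex, without saying which animals went into which plate. The intersectional reporter also labels some afferents that are not muscle proprioceptors, and by the study's account the TrkC reporter marks Merkel cell afferents beside proprioceptors at E14.5. The Flp cassette sits behind the Runx3 stop codon of 1 allele, and how this allele's transcript was counted is not given in the sources used here.

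The authors' annotation kept 586 of 1248 wells, with 208 adult, 154 P12, 55 P0 and 169 E14.5 neurons, and it assigned them to clusters within each stage. All plates used the same 96 well barcodes, so neurons were told apart by plate and barcode together. Mean UMIs per neuron were 11174 at E14.5, 41594 at P0, 30623 at P12 and 44511 in adults, and the kept UMIs per plate ran from 680212 to 2387288. Of the 5 proprioceptor markers, Runx3 and Etv1 are members themselves, and Pvalb, Runx3 and Ntrk3 are the genes whose expression the reporters follow. All 5 were detected at every stage, but Whrn in 1.18% of E14.5 neurons only (1.24 CPM). Of 8 immune cell markers Csf1r, Aif1 and C1qa were at 0 throughout, and such a 0 can be a gene that was not counted. The summed level of these 8 was 1.68 to 12.8 CPM per plate over all stages, most of it from Lyz2, which had a UMI in 21.4% of P12 and 24.5% of adult neurons. The summed level of 8 glial markers was 11.3 to 22.6 CPM per plate at E14.5, 516 to 635 at P0, 215 to 603 at P12 and 309 to 852 in the adult. A plate was the replicate between stages, and those p-values therefore measure the spread between plates. In the cluster fits the sum of each plate and cluster was the unit, without a plate block. Their p-values measure the spread between sums of the same cluster, and take sums that share a plate as independent.

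Runx1 lies at chr16:92601466-92826149 on the minus strand and Runx3 at chr4:135120652-135177990 on the plus strand of GRCm38. Etv1 lies at chr12:38779380-38870484 (plus), Etv4 at chr11:101769742-101785371 (minus), Maf at chr8:115682942-115707794 (minus), Mafa at chr15:75745490-75748228 (minus) and Shox2 at chr3:66971727-66981771 (minus). Runx1, Runx3, Maf and Shox2 each overlap a gene on the other strand, namely Gm26626, Gm16224, Gm15655 and Rsrc1. Whether counting used strand is not stated in the sources used here, so reads from these overlaps cannot be told apart.

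Since Runx1 and Runx3 carry the first results below, the stretches around Runx motif matches in the RefSeq promoter windows (GRCm38.p6) of the members are shown first. The letters searched were TGTGGT, which read ACCACA on the other strand, and they stand in capitals. A match occurred in 16.8% of all 32851 windows, and at least 2 matches in 1.81%. The Runx3 stretch is chr4:135120503-135120532 on the plus strand, from -142 to -113 relative to the transcription start. The Etv1 stretch is chr12:38779878-38779907 on the plus strand, from -204 to -175. The Runx1 stretch is chr16:92826025-92826054 on the minus strand, from 20 to 49 bases behind the start.
Runx3: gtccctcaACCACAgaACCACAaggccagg
Etv1: aaggctggagcgTGTGGTgggtggactccg
Runx1: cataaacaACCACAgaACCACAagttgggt
Runx1 and Runx3 carried the same pair of matches, ACCACANNACCACA, which 7 windows in all held (0.0213%). The identical run around it was 18 bases long and was found in 4 windows, those of Runx1, Runx2, Runx3 and the predicted gene Gm16225. The 7 windows searched belonged to Runx1, Runx3, Etv1 and Shox2. No Runx match lay in the other windows of Runx1 (chr16:92697280-92697579), Runx3 (chr4:135152295-135152594) and Etv1 (chr12:38783461-38783760), or in that of Shox2. None of the 7 held the ETS letters CCGGAAG (8.86% of all windows), and an Etv1 window held the Maf letters TGCTGAC (4.67% of all windows). A match is a description of these letters and not of binding.

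Across stages, Runx1 was at 0 at E14.5 and highest in the adult, whereas Runx3 was highest at E14.5. Etv1 was found in 89.3% or more of the neurons at every stage, and Shox2 was highest in the adult. Levels are given as CPM, a gene's UMI count relative to all UMIs of its neuron, averaged over the kept neurons of a plate, and are compared between groups for 1 gene at a time.

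Runx1 stood at 0 CPM on both E14.5 plates. It stood at 3.70 and 0 CPM on the P0 plates, at 1.90, 4.10, 7.28 and 7.57 CPM on the P12 plates, and at 24.6, 27.3, 26.4, 12.6 and 20.9 CPM on the adult plates. Every adult plate thus lay above every younger plate, while the P0 and P12 plates overlapped. No UMI was found in 169 E14.5 neurons, which allows a share of up to 1.78% of neurons with a UMI and a level of up to 1.59 CPM. These limits cover detection, since a neuron with little Runx1 would often show none at this depth. Runx1 was detected in 1 of 55 P0, 25 of 154 P12 and 95 of 208 adult neurons. To set the stages side by side at 1 depth, each neuron was thinned to 7000 UMIs, which left out 18 E14.5 and 2 P12 neurons below that depth. The mean share of neurons with a UMI of Runx1 was then 0, 1.61, 2.78 and 16.0% from E14.5 to the adult, against 0, 1.61, 17.7 and 45.7% at full depth.

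The P12 to P0 step of Runx1 rests on 29 UMIs against 1, a ratio relative to depth of 14.1 with a 95% interval of 2.33 to 575 from counting error only. The adult to P12 step rests on 189 against 29 UMIs, a ratio of 3.32 (2.24 to 5.09). In the test across all genes, Runx1 was higher at P12 than at P0 (log2 fold change 3.65 ± 0.95, edgeR quasi-likelihood test with Benjamini-Hochberg adjusted p = 0.0165). It was higher again in the adult than at P12 (1.75 ± 0.37, SE, adjusted p = 0.00745, edgeR). The first of these calls was lost without either P0 plate (adjusted p 0.081 and 0.12), with DESeq2 (0.051) and with P12 replicates 1 and 2 alone (0.14), while the adult call for Runx1 was kept under each of these and without any single plate.

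Runx3 stood at 124 and 143 CPM on the E14.5 plates, at 43.7 and 43.0 CPM at P0, and at 37.6, 39.5, 16.6 and 18.3 CPM at P12. In the adult it stood at 58.7, 48.1, 31.2, 26.3 and 35.3 CPM. Both E14.5 plates lay above all the others. At P12 the plates fell into 2 sets, and the same was seen for Maf, Shox2 and Etv1 below. Runx3 was detected in 107 of 169 E14.5, 44 of 55 P0, 62 of 154 P12 and 151 of 208 adult neurons. At the thinned depth the mean share was 52.9% at E14.5 and between 17.1 and 19.0% at the 3 later stages, so that the similar shares at full depth (63.0, 79.9, 58.0 and 72.5%) went with unequal depth. Runx3 was 3.23-fold lower at P0 than at E14.5 (log2 fold change -1.69 ± 0.39, adjusted p = 0.0059, edgeR). Without P0 replicate 1 or 2 the call for Runx3 was lost (adjusted p 0.05 and 0.055). The 2 later steps did not pass the test, at -0.48 ± 0.36 (adjusted p = 0.387) and 0.47 ± 0.28 (adjusted p = 0.278, edgeR).

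Etv1 stood at 638 and 634 CPM at E14.5, at 963 and 869 CPM at P0, and at 595, 635, 394 and 382 CPM at P12. In the adult it stood at 469, 439.7, 419, 386 and 391 CPM. The P0 plates were the highest. A UMI of Etv1 was found in 151 of 169 E14.5, 55 of 55 P0, 152 of 154 P12 and 202 of 208 adult neurons, and the thinned mean shares were 84.0, 100, 92.1 and 92.6%. Etv1 fell 1.72-fold from P0 to P12 (log2 fold change -0.78 ± 0.19, adjusted p = 0.0114, edgeR), a call that was lost without either P0 plate (adjusted p 0.11 and 0.063). The other steps of Etv1 did not pass, at 0.59 ± 0.23 from E14.5 to P0 (adjusted p = 0.066) and -0.27 ± 0.15 from P12 to the adult (adjusted p = 0.249, edgeR).

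Etv4 was rarely detected. It had 9 UMIs in 7 neurons, 6 of them at E14.5 (2.50 and 4.06 CPM on the 2 plates) and 1 in the adult. It was found in 0 of 55 P0 and 0 of 154 P12 neurons, which allows shares of up to 5.45% and 1.95% of neurons with a UMI and again covers detection alone. Mafa had no UMI in any of the 1248 wells. Uchl1, a gene known to be abundant in neurons, was also at 0 in every kept neuron, so a 0 in these tables can be a gene that was not counted, and for Mafa this was not tested. Neither gene passed the filter on low counts in any fit.

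Maf stood at 138 and 88.5 CPM at E14.5, at 36.0 and 66.2 CPM at P0 and at 161, 93.3, 27.4 and 19.6 CPM at P12. In the adult it stood at 156, 177, 95.0, 98.7 and 64.2 CPM. The plates of every pair of stages overlapped except those of E14.5 and P0. No step of Maf passed the test. The log2 fold changes were -1.41 ± 0.65 from E14.5 to P0 (adjusted p = 0.118), 0.92 ± 0.58 from P0 to P12 (adjusted p = 0.303) and 0.85 ± 0.42 from P12 to the adult (adjusted p = 0.188, edgeR). The first of these turned to 0.74 with E14.5 clusters 1 and 2 alone, and the second to -0.16 at the thinned depth and to -0.20 with P12 replicates 3 and 4 alone. Maf was detected in 50 of 169 E14.5, 35 of 55 P0, 52 of 154 P12 and 146 of 208 adult neurons.

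Shox2 stood at 127 and 105 CPM at E14.5, at 57.2 and 33.5 CPM at P0 and at 168, 140.3, 78.2 and 67.3 CPM at P12. In the adult it stood at 398, 373, 176, 142 and 186 CPM. The P0 plates were the lowest, and the 3 lower adult plates reached the higher P12 plates. Shox2 was detected in 85 of 169 E14.5, 41 of 55 P0, 121 of 154 P12 and 204 of 208 adult neurons, and the thinned mean shares were 43.5, 19.2, 39.6 and 74.4%. Shox2 was higher at P12 than at P0 (log2 fold change 1.47 ± 0.46, adjusted p = 0.0384) and higher in the adult than at P12 (1.07 ± 0.33, adjusted p = 0.0404, edgeR). The first call for Shox2 was lost without either P0 plate (adjusted p 0.1 and 0.29), without P12 replicate 1 or 2 (0.073 and 0.053), without E14.5 replicate 1 (0.052), at the thinned depth (0.24) and with P12 replicates 3 and 4 alone (0.14). The second was lost without adult replicate 1 or 2 (adjusted p 0.11 and 0.1), without P12 replicate 2, 3 or 4 (0.052, 0.12 and 0.13) and without either E14.5 plate (0.051 and 0.059), and with P12 replicates 1 and 2 alone (0.71, adjusted p = 0.33). The step from E14.5 to P0 was -1.35 ± 0.51 (adjusted p = 0.0606, edgeR).

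Counted over members, 1 of the 5 tested was called from E14.5 to P0, 3 of 5 from P0 to P12 and 2 of 5 from P12 to the adult. Of all 11939 genes tested, 27.8% were called from E14.5 to P0, 18.1% from P0 to P12 and 14.1% from P12 to the adult. The order of the stage means (± SD over plates) was adult, P12, P0 and E14.5 for Runx1 (22.4 ± 5.97, 5.21 ± 2.71, 1.85 and 0 CPM), and P0 and E14.5 did not differ beyond a single UMI. For Runx3 it was E14.5, P0, adult and P12 (133 ± 13.3, 43.4 ± 0.45, 39.9 ± 13.2 and 28.0 ± 12.2 CPM), where neither the step from P0 to P12 nor that from P12 to the adult was called and P0 against the adult was not tested. For Etv1 it was P0, E14.5, P12 and adult (916 ± 66.7, 636 ± 2.85, 501 ± 132 and 421 ± 34.8 CPM). For Shox2 it was adult, E14.5, P12 and P0 (255 ± 121, 116 ± 15.2, 113 ± 48.6 and 45.4 ± 16.8 CPM), and for Maf adult, E14.5, P12 and P0 (118 ± 46.8, 113 ± 35.1, 75.3 ± 66.0 and 51.1 ± 21.4 CPM). The summed glial markers were higher on every P0 plate than on every E14.5 plate, and their part in the difference between these stages was not tested.

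**Figure D1:**
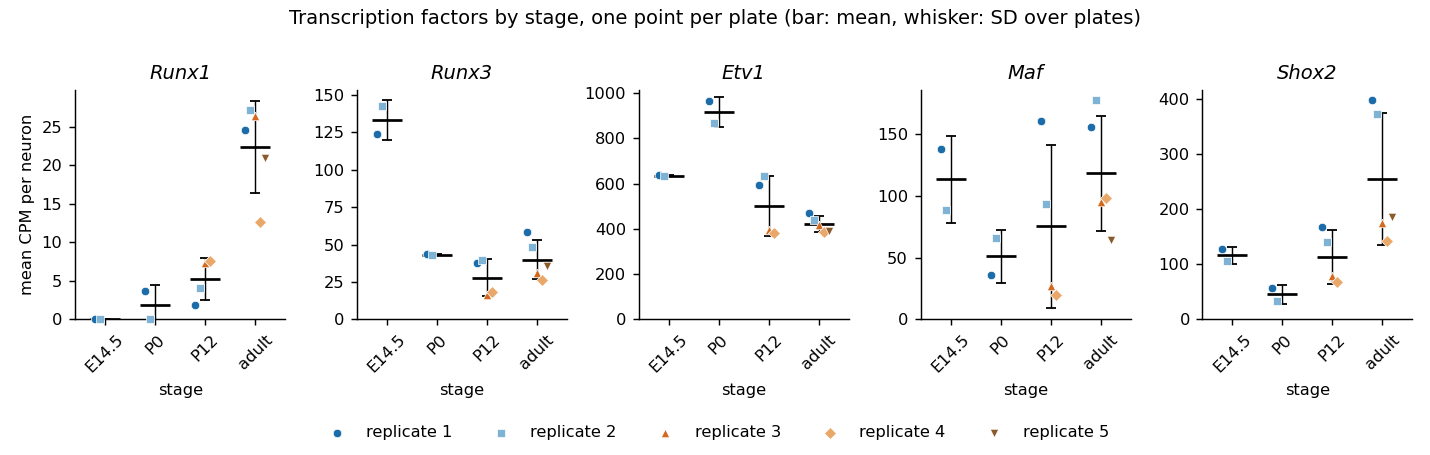
Level of the 5 members with more than 9 UMIs by stage (mean CPM per neuron, linear axis from 0), with 1 point per plate and a bar for the mean. Runx1 is at 0 on both E14.5 plates and between 12.6 and 27.3 CPM on the adult plates, Runx3 is at 124 and 143 CPM at E14.5 and at 58.7 CPM or less afterwards, and the P12 plates of Runx3, Etv1, Maf and Shox2 form 2 sets.

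At E14.5, Etv1 and Maf took opposite places across the 4 clusters. Etv1 was high in clusters 1 and 2 and low in clusters 3 and 4, and Maf was the reverse. The authors found these clusters in the same neurons, so a cluster test here says how well the difference held from plate to plate, and does not bear on whether the cluster exists. Cluster 4 held 6 neurons, 5 of them on replicate 2, and entered the fit as 1 sum.

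Etv1 stood at 736 and 796 CPM in cluster 1, at 859.5 and 779.6 CPM in cluster 2, at 128 and 83.2 CPM in cluster 3, and at 43.5 CPM in the 5 cluster 4 neurons of replicate 2. All 41 and all 88 neurons of clusters 1 and 2 had a UMI of Etv1, against 20 of 34 in cluster 3 and 2 of 6 in cluster 4. Maf stood at 9.09 and 5.42 CPM in cluster 1, at 26.4 and 36.3 CPM in cluster 2, at 438 and 357 CPM in cluster 3 and at 217 CPM in cluster 4. Maf was detected in 3 of 41, 13 of 88 and 31 of 34 neurons of clusters 1, 2 and 3, and in 26 of 34 neurons of cluster 3 at the thinned depth. Of the 6 cluster 4 neurons, 2 held Maf as the only member, 1 held it with Etv1 and Shox2, and the others held none. The 2 groups of clusters did not overlap for either gene. In clusters 3 and 4 against clusters 1 and 2, Etv1 was 11.4-fold lower (log2 fold change -3.52 ± 0.27, adjusted p = 1.51e-07) and Maf 14.7-fold higher (3.88 ± 0.45, adjusted p = 5.94e-05, edgeR). Of 4912 genes tested, 1.18% were called in this contrast, and 2 of the 4 members tested were.

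Runx3 stood at 106 and 111 CPM in cluster 1, at 171 and 197 CPM in cluster 2, at 45.6 and 48.0 CPM in cluster 3 and at 75.1 CPM in cluster 4. Of clusters 1 to 3, cluster 2 was the highest on both plates and cluster 3 the lowest, with a UMI in 71 of 88 and 13 of 34 neurons. In clusters 3 and 4 against clusters 1 and 2 the log2 fold change of Runx3 was -1.42 ± 0.36 (adjusted p = 0.0647, edgeR), and with the plate as a block, where 1.97% of all genes were called, it was -1.45 ± 0.37 (adjusted p = 0.0334). Shox2 stood at 90.9 and 98.3 CPM in cluster 1, at 147 and 133 CPM in cluster 2, at 119 and 38.7 CPM in cluster 3 and at 78.9 CPM in cluster 4, with overlap between the groups. Its log2 fold change in clusters 3 and 4 was -0.65 ± 0.46 (adjusted p = 0.587, edgeR). All 6 E14.5 neurons with a UMI of Etv4 were in cluster 3, at 9.85 and 25.4 CPM on the 2 plates, and Runx1 was at 0 in every cluster.

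For any difference between the 4 clusters, 3 of 4 members were called against 4.32% of all genes, with adjusted p = 9.65e-08 for Etv1, 1.1e-07 for Maf and 0.00138 for Runx3 (0.629 for Shox2, edgeR). With DESeq2 the call for Runx3 was lost (adjusted p = 0.21). Cluster 1 against cluster 2 called 2.65% of all genes and no member, with Runx3 at -0.68 ± 0.28 (adjusted p = 0.385) and Maf at -2.12 ± 0.64 (adjusted p = 0.108, edgeR). These were the 2 members with an unadjusted p under 0.05 there. The value of Maf rests on 37 UMIs in cluster 2 against 3 in cluster 1, a ratio relative to depth of 4.33 (1.37 to 21.9 from counting error only). Cluster 3 against cluster 4 called 0.326% of all genes and no member, with 1 member (Maf) under that unadjusted threshold. Since cluster 4 entered as 1 sum, its spread in this contrast was taken from the other clusters. Clusters 3 and 4 also held less of the proprioceptor marker Pvalb, at 275 and 220 CPM against 663 and 768 CPM in clusters 1 and 2. Ntrk3, which codes for TrkC, stood between 277 and 366 CPM in all 4, in neurons that had been sorted by a TrkC reporter. The part of these markers in the differences of Etv1 and Maf was not tested. The study had described low Etv1 and Pvalb and raised Maf in clusters 3 and 4. From this it proposes that they are TrkC neurons other than proprioceptors, Merkel cell afferents among them. The values here are from the same neurons and are no independent support.

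**Figure D2:**
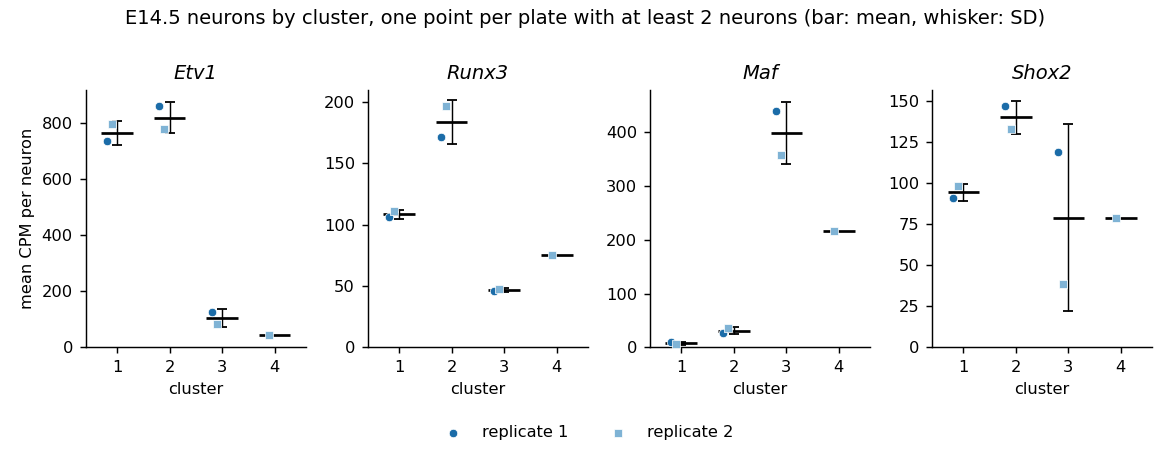
Level of Etv1, Runx3, Maf and Shox2 by E14.5 cluster (mean CPM per neuron, linear axes from 0), with 1 point per plate and cluster that holds at least 2 neurons and a bar for the mean. Etv1 is at 736 CPM or more in clusters 1 and 2 and at 128 CPM or less in clusters 3 and 4, and Maf is at 36.3 CPM or less in the first and at 217 CPM or more in the second.

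At P0 no member was called between the 3 clusters. Etv1 stood at 965 and 847 CPM in cluster 1, at 1069 and 1039 CPM in cluster 2 and at 769 and 740.0 CPM in cluster 3, in every neuron of each. Its values did not overlap between the clusters on the 2 plates. For any difference between clusters 1.52% of 5061 genes were called and 0 of 4 members were (edgeR), with 2 members, Etv1 and Maf, at an unadjusted p under 0.05 (adjusted p 0.477 and 0.481). Maf stood at 40.4 and 46.6, 14.2 and 43.7, and 51.6 and 168 CPM in clusters 1, 2 and 3. For cluster 2 against clusters 1 and 3, 1.21% of genes and 0 of 4 members were called, and the same 2 members had an unadjusted p under 0.05. Runx3 (adjusted p = 0.985) and Shox2 (0.881, edgeR) lay within the spread of the 2 plates, and the single UMI of Runx1 was in a cluster 3 neuron. Cluster 3, with the highest value of Maf, also held 3256 to 3293 CPM of the 8 glial markers, against 102 to 111 CPM in clusters 1 and 2, and their part in the levels there was not tested. Clusters 2 and 3 held 12 and 8 neurons, which limits what could be detected.

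At P12, Maf was nearly absent from cluster 1 and was detected at full depth in every neuron of clusters 2 and 5. The plates and the clusters were not crossed, however. Clusters 2 and 3 were found on replicates 1 and 2 alone and clusters 1, 4 and 5 on replicates 3 and 4 alone, so that across these sets cluster and plate cannot be told apart. Contrasts between clusters of the same plates were added for this reason after the data had been seen.

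On replicates 3 and 4, Maf stood at 2.36 and 0 CPM in cluster 1, at 23.5 and 41.0 CPM in cluster 4 and at 144 and 219 CPM in cluster 5. The 3 clusters did not overlap in CPM. A UMI was found in 1 of 63, 24 of 58 and 8 of 8 neurons. Depth rose in the same order, with median UMIs per neuron of 16393 and 15921, 29509 and 30386, and 52717 and 39270. The part of depth in these shares was not tested. Between clusters of these plates, Maf was lower in cluster 1 than in cluster 4 (log2 fold change -4.79 ± 0.81, adjusted p = 0.00213), the only 1 of 4 members called against 0.966% of all genes (edgeR). That value rests on 1 UMI of Maf in cluster 1 against 62 in cluster 4, a ratio relative to depth of 34.7 with a counting interval of 6.01 to 1394. Without replicate 4 the log2 fold change of Maf was -3.20 (adjusted p = 0.68), and its call was also lost with DESeq2 (0.072) and at the thinned depth (0.087). Maf was higher in cluster 5 than in clusters 1 and 4 (4.64 ± 0.46, adjusted p = 1.98e-07, edgeR), with 63 UMIs in cluster 5 and a ratio relative to depth of 4.75 (3.29 to 6.85) over cluster 4. Shox2 was 2.29-fold higher in cluster 5 (1.19 ± 0.24, adjusted p = 0.00206, edgeR). That contrast called 2 of 4 members against 6.88% of genes, and the call for Shox2 was lost at the thinned depth (adjusted p = 0.11) and without replicate 3 or 4 (0.52 and 0.097).

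Shox2 stood at 58.9 and 59.2 CPM in cluster 1, at 77.6 and 74.6 CPM in cluster 4 and at 153 and 163 CPM in cluster 5. The order of these 3 clusters was the same as for Maf. Etv1 stood at 359 and 395, 412 and 339, and 404 and 523 CPM in clusters 1, 4 and 5, and Runx3 at 21.4 and 18.4, 14.6 and 18.5, and 12.2 and 13.4 CPM. Neither Etv1 nor Runx3 passed a test between clusters of the same plates, with adjusted p of 0.635 to 0.954 for Etv1 and 0.747 to 0.928 for Runx3 on these 2 plates (edgeR). Runx1 was seen in 3 of 63 neurons of cluster 1 (3.53 CPM on each plate), 16 of 58 of cluster 4 (10.5 and 15.8 CPM) and 1 of 8 of cluster 5, and its counts were too low for the P12 fit.

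On replicates 1 and 2, Maf stood at 272 and 266 CPM in cluster 2 and at 81.6 and 41.5 CPM in cluster 3, with a UMI in 8 of 8 and 11 of 17 neurons. Shox2 stood at 239.6 and 198 CPM against 117 and 123 CPM. Cluster 2 was above cluster 3 on both plates for both genes. It was also deeper, with median UMIs per neuron of 83890 and 68443 against 48392 and 46055. Maf was 3.54-fold higher (log2 fold change 1.82 ± 0.30, adjusted p = 0.000326) and Shox2 1.83-fold higher (0.87 ± 0.22, adjusted p = 0.0228, edgeR) in cluster 2, and 3.91% of all genes and 2 of 4 members were called. The call for Maf was lost at the thinned depth (adjusted p = 0.22), and that for Shox2 there (0.51), with DESeq2 (0.22), without the filter on low counts (0.084), with sums of at least 4 neurons (0.068) and without replicate 1, 3 or 4 (0.56, 0.086 and 0.079). Runx3 stood at 43.1 and 56.0 CPM in cluster 2 and at 33.6 and 34.5 CPM in cluster 3 (adjusted p = 0.695), and Etv1 at 720.3 and 718 against 505 and 611 CPM (adjusted p = 0.486, edgeR).

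Over all 5 clusters, 4 of 4 members tested were called for any difference, against 31.5% of 6209 genes, with adjusted p = 1.67e-09 for Maf, 1.25e-05 for Shox2, 0.00346 for Etv1 and 0.0417 for Runx3 (edgeR). Against the other clusters, cluster 2 was higher for all 4, with log2 fold changes of 3.22 ± 0.28 for Maf, 1.18 ± 0.37 for Runx3 (adjusted p = 0.0232), 1.08 ± 0.18 for Shox2 and 0.60 ± 0.14 for Etv1, where 21% of genes were called. Cluster 1 was lower for 2 of 4, with Maf, on its 1 UMI there, at -6.31 ± 0.62 and Shox2 at -1.07 ± 0.21, where 22.7% of genes were called. Cluster 3 called none of 4 members (Maf alone had an unadjusted p under 0.05) and 12.3% of genes. Cluster 4 called Shox2 alone (-0.64 ± 0.18, adjusted p = 0.0266) and 6.59% of genes, and cluster 5 called Maf alone (2.48 ± 0.36, adjusted p = 6.97e-05, edgeR) and 5.41% of genes. These 5 contrasts cross the 2 plate sets. The call for Runx3 in cluster 2 was lost without any 1 of the 4 plates (adjusted p 0.061 to 0.14), with DESeq2 (0.14), without the filter (0.092) and with sums of at least 4 neurons (0.16). That for Shox2 in cluster 4 was lost without replicate 3 or 4 (0.53 and 0.57), with DESeq2 (0.23), without the filter (0.2) and at the thinned depth (0.17). For Shox2 in cluster 1 it was lost without replicate 3 or 4 (0.067 and 0.1) and at the thinned depth (0.12), and for Shox2 in cluster 2 at the thinned depth (0.26). For any difference, the call for Runx3 was lost without any 1 plate (0.097 to 0.41), with DESeq2 (0.36) and without the filter or with sums of at least 4 neurons (0.16 each), that for Etv1 without replicate 3 or 4 (0.099 and 0.095) and that for Shox2 at the thinned depth (0.066).

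**Figure D3:**
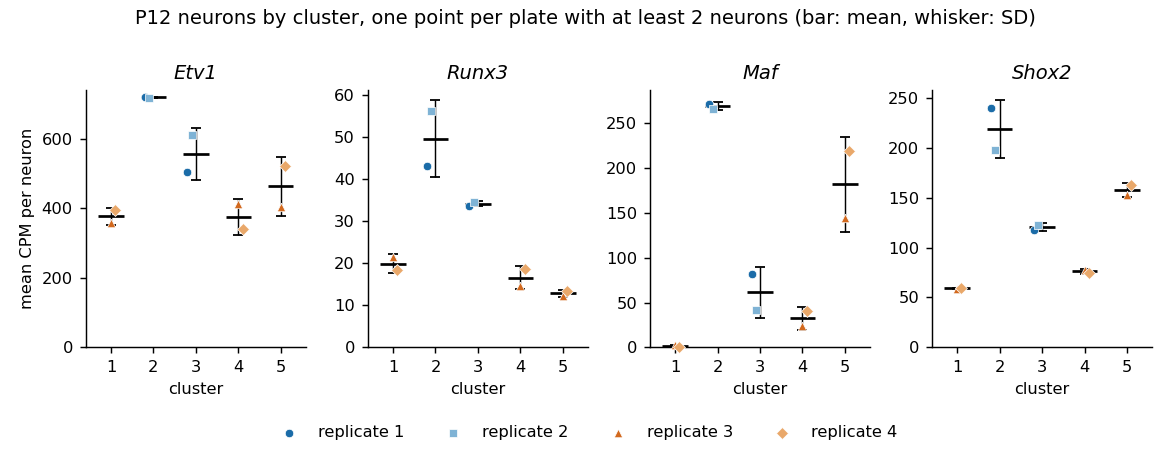
Level of Etv1, Runx3, Maf and Shox2 by P12 cluster (mean CPM per neuron, linear axes from 0), with 1 point per plate and cluster and a bar for the mean. Clusters 2 and 3 carry points of replicates 1 and 2, and clusters 1, 4 and 5 points of replicates 3 and 4. Maf is at 2.36 CPM or less in cluster 1 and at 266 and 272 CPM in cluster 2.

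In the adult, Maf was highest in cluster 1 and lowest in cluster 4, and Runx1 was highest in cluster 2. Clusters 1 and 5 were found on all 5 plates. Clusters 2 and 4 were found on replicates 1 and 2 alone, and cluster 3 mostly on replicates 3 to 5. The annotation also set 42 neurons apart from the 5 numbered clusters, and these are given as levels and were left out of the cluster tests.

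Maf stood at 386, 448, 194, 211 and 189 CPM in cluster 1 and was seen in 51 of 51 neurons. It stood at 199.9, 138, 59.0, 34.3 and 58.7 CPM in cluster 5 (27 of 31 neurons), at 56.3 and 162 CPM in cluster 2 (12 of 15) and at 11.1 and 11.9 CPM in cluster 4 (6 of 28). In cluster 3 it stood at 136, 32.5, 34.7 and 50.1 CPM on replicates 2 to 5, and in the neurons set apart between 5.47 and 115 CPM. Cluster 1 exceeded cluster 5 on each of the 5 plates, and cluster 4 lay below every other numbered cluster. At the thinned depth Maf was seen in 42 of 51 neurons of cluster 1, 14 of 31 of cluster 5 and 4 of 28 of cluster 4. Maf was 2.84-fold higher in cluster 1 than in cluster 5 (log2 fold change 1.51 ± 0.36, adjusted p = 0.013, edgeR), and with the plate as a block it was 1.58 ± 0.16. Leaving out replicate 2 or 3 ended the call for Maf (adjusted p 0.059 and 0.054), as did the thinned depth (0.37).

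Shox2 stood at 490.3, 509, 264, 173 and 167 CPM in cluster 1 and at 244, 276, 59.3, 64.1 and 107 CPM in cluster 5. Cluster 1 was above cluster 5 on each plate, but the plates of the 2 clusters overlapped. The log2 fold change of Shox2 was 1.08 ± 0.35 (adjusted p = 0.0966, edgeR), and with the plate as a block it was 1.14 ± 0.15 (adjusted p = 6.72e-06). Within replicates 1 and 2 it was 0.96 and within replicates 3 to 5 it was 1.45 (adjusted p 0.00058 and 0.0016). Etv1 stood at 593, 561, 529.8, 479 and 491 CPM in cluster 1 and at 509, 409, 476, 367 and 286 CPM in cluster 5, again above it on each plate. Its log2 fold change was 0.34 ± 0.14 (adjusted p = 0.245), and with the block 0.32 ± 0.10 (adjusted p = 0.0351, edgeR). It was 0.32 within replicates 1 and 2 and 0.33 within replicates 3 to 5, with adjusted p of 0.41 and 0.3. Of 7370 genes tested, 4.76% were called between clusters 1 and 5 and 1 of the 5 members, or 3 of 5 with the plate as a block, where 9.66% of genes were called.

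Runx1 stood at 123 and 63.5 CPM in cluster 2, and at 28.7, 44.2, 21.7 and 38.5 CPM in cluster 3 on replicates 2 to 5. It stood at 13.8, 18.4, 11.5, 6.40 and 31.0 CPM in cluster 1, at 10.0, 34.6, 17.9, 17.9 and 4.79 CPM in cluster 5 and at 22.6 and 0 CPM in cluster 4. Both values of cluster 2 were above every other sum of at least 2 neurons, and the remaining clusters overlapped. A UMI was found in 12 of 15 neurons of cluster 2, 27 of 41 of cluster 3, 24 of 51 of cluster 1, 17 of 31 of cluster 5, 7 of 28 of cluster 4 and 8 of the 42 set apart. For any difference between clusters, Runx1 (adjusted p = 0.0155) and Maf (0.000159) were called, 2 of 5 members against 9.67% of genes, and with the plate as a block Shox2 (4.22e-05) and Etv1 (0.045, edgeR) were called as well, against 16.0% of genes. Without replicate 1, 3 or 4 the adjusted p of Runx1 was 0.094, 0.072 and 0.06, and its call was lost.

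Clusters 2 to 4 against clusters 1 and 5 called 2 of 5 members and 5.63% of genes. Maf was 4.33-fold lower there (log2 fold change -2.12 ± 0.36, adjusted p = 0.000928) and Runx1 2.47-fold higher (1.31 ± 0.36, adjusted p = 0.0347, edgeR). The call for Maf was lost without replicate 1 (adjusted p = 0.07). Runx1 turned to -0.98 (adjusted p = 0.76) without replicate 1, which leaves replicate 2 alone for clusters 2 and 4, and its call was lost without replicate 3, 4 or 5 as well (adjusted p 0.16, 0.11 and 0.0504), and within replicates 1 and 2 (0.18) and within replicates 3 to 5 (0.068). Shox2 was at 0.66 ± 0.27 (adjusted p = 0.175), and with the block, where 10.6% of genes were called, at 0.45 ± 0.12 (adjusted p = 0.0133, edgeR). Its levels were 470.2 and 471 CPM in cluster 2 and 424 and 409.9 CPM in cluster 4, and between 190.2 and 242 CPM in cluster 3, whose plates are mostly others.

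Cluster 4 against cluster 2 called 0.136% of genes and no member, with 2 members, Maf and Runx1, at an unadjusted p under 0.05. The log2 fold change of Maf was -3.32 ± 0.87 (adjusted p = 0.228, edgeR), and with the plate as a block it was -3.33 ± 0.52 (adjusted p = 0.000528, where 0.719% of genes were called) and with DESeq2 the adjusted p was 0.049. Runx3 did not pass any adult cluster test. It stood at 55.8 and 72.6 CPM in cluster 4, 63.7 and 50.3 CPM in cluster 2 and 24.8 to 39.1 CPM in cluster 3, and in clusters 1 and 5 at 7.97 to 56.5 and 16.8 to 54.6 CPM. All neurons of the numbered clusters and 36 of the 42 set apart held Etv1, and in the latter it stood between 251 and 365 CPM.

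**Figure D4:**
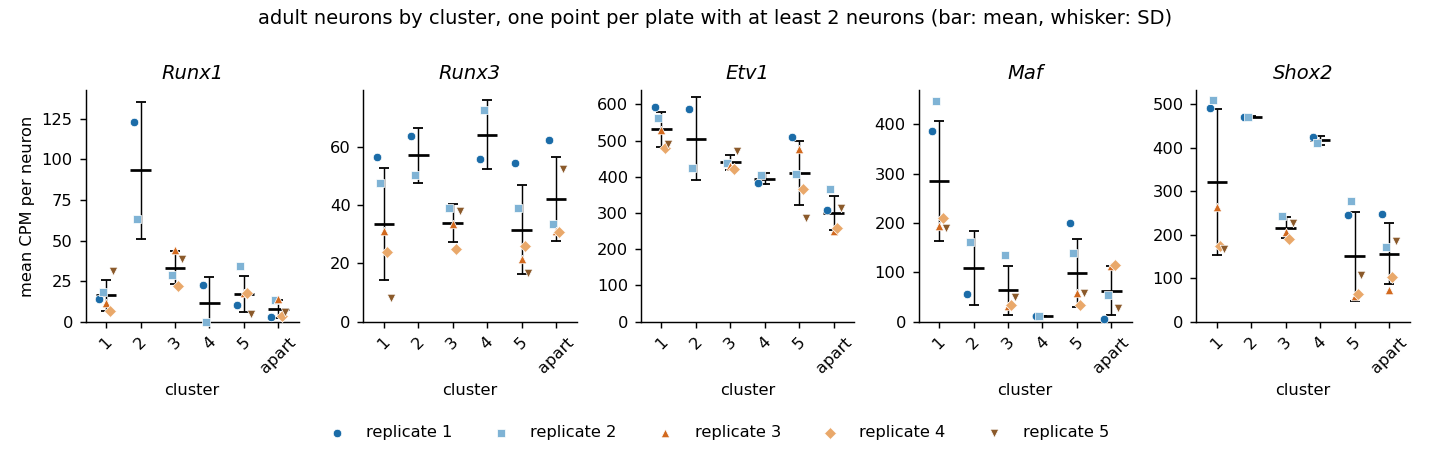
Level of Runx1, Runx3, Etv1, Maf and Shox2 by adult cluster and in the neurons set apart (mean CPM per neuron, linear axes from 0), with 1 point per plate and cluster and a bar for the mean. Maf is between 189 and 448 CPM in cluster 1 and at 11.1 and 11.9 CPM in cluster 4, and Runx1 is at 63.5 and 123 CPM in cluster 2.

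The adult plates themselves fell into 2 sets. Within clusters 1 and 5, Maf was 2.44-fold higher (log2 fold change 1.29 ± 0.15, adjusted p = 4.81e-06), Shox2 2.64-fold higher (1.40 ± 0.15, adjusted p = 1.9e-06) and Runx3 2.05-fold higher (1.04 ± 0.25, adjusted p = 0.0056, edgeR) on replicates 1 and 2 than on replicates 3 to 5. Maf in cluster 1, for example, was at 386 and 448 CPM on the first set and at 189 to 211 CPM on the second. Etv1 was at 0.19 ± 0.11 (adjusted p = 0.222). In this comparison 3 of 4 members and 23.3% of 6061 genes were called. It rests on 5 plates but on 10 sums, 2 from each plate, whose deviations correlated at 0.415 to 0.749, so that its errors and p-values are too small. With 1 sum per plate, Maf was at 1.07 ± 0.14 in cluster 1 and 1.69 ± 0.29 in cluster 5 (adjusted p 9.99e-05 and 0.00517), and Shox2 at 1.20 ± 0.16 and 1.70 ± 0.27 (8.04e-05 and 0.0029). Runx3 was no longer called, at 0.89 ± 0.32 and 1.23 ± 0.42 (0.0889 and 0.103, edgeR). With DESeq2, fitted here without the cluster term that the edgeR fit held, the call for Maf was lost (adjusted p = 0.14). These 2 fits therefore differ in more than the method. Without replicate 1 the call for Runx3 was lost (0.083, edgeR). The labels give no date or batch for the plates, and animals, handling and plate cannot be told apart. By the study's account the adult neurons came from 3 experiments with 4 males and 2 females, without saying which plate came from which.

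Joint detection in single neurons was counted for each pair of members. Runx3 and Etv1 were found together in 100 of 169 E14.5 neurons (59.2%, exact 95% interval 51.4 to 66.7%), 44 of 55 P0, 62 of 154 P12 and 147 of 208 adult neurons. Such shares depend on depth, and after thinning the same pair was found in 74 of 151 E14.5, 10 of 55 P0, 19 of 152 P12 and 40 of 208 adult neurons. All intervals cover counting error within these neurons, which share plates.

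At E14.5, Etv1 and Maf were found together in 20.7% of neurons (35 of 169), beside 26.4% for the product of their shares. A UMI of Maf was seen in 23.2% of the neurons with Etv1 and in 83.3% of the 18 neurons without it. Of the 35 joint neurons, 18 were in cluster 3, 13 in cluster 2, 3 in cluster 1 and 1 in cluster 4. Runx3 and Maf were joint in 24 neurons, with Maf in 22.4% of the neurons with Runx3 and 41.9% of those without. At the thinned depth the mean share of Etv1 with Maf was 13.2% beside a product of 21.7%. These are descriptions of pooled neurons, and no test was made over neurons.

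In the adult, Maf and Shox2 were joint in 145 of 208 neurons (69.7%, 63.0 to 75.9%), Runx3 and Maf in 115 (55.3%, 48.3 to 62.2%) and Runx1 and Shox2 in 95 (45.7%). The products of the single shares were 68.8, 51.0 and 44.8%. Shox2 was seen in 100% of the neurons with Runx1 and 96.5% of those without. Maf was seen in 76.2% of the neurons with Runx3 and in 54.4% of those without. As means over plates, the joint share of Runx3 and Maf was 53.4% beside a product of 51.1%. At the thinned depth it was 9.74% beside 8.31%. The 2 Runx genes were joint in 68 neurons (32.7%), with a mean over plates of 31.8% beside a product of 33.2%, and Runx3 was seen in 71.6% of the neurons with Runx1 and 73.5% of those without. At P12 the pair was joint in 10 of 154 neurons (6.49%, 3.16 to 11.6%), and at E14.5 and P0 in none. After thinning, 9 of 208 adult neurons held both Runx genes.

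Combinations were counted at full depth, which differed between stages and between clusters. The most frequent was Runx3 with Etv1 at E14.5 (41 of 169 neurons), followed by the same pair with Shox2 (40 neurons). It was Runx3, Etv1, Maf and Shox2 at P0 (25 of 55) and in the adult (56 of 208), and Etv1 with Shox2 at P12 (40 of 154). Of those 40 P12 neurons, 27 were in cluster 1 and 12 in cluster 4, both of replicates 3 and 4, and 1 was in cluster 3. In clusters 2 and 3, those of P12 replicates 1 and 2, Runx3, Etv1, Maf and Shox2 led, with 6 of 8 and 7 of 17 neurons. In 53 adult neurons all of Runx1, Runx3, Etv1, Maf and Shox2 were found. Within adult clusters this 5-gene combination was found in 7 of 15 neurons of cluster 2, 18 of 51 of cluster 1, 11 of 31 of cluster 5 and 12 of 41 of cluster 3. In cluster 4 the leading combination was Etv1 with Shox2 (9 of 28), without Maf. At the thinned depth the leaders of the stages changed. They were Runx3, Etv1 and Shox2 at E14.5 (33 of 151) and Etv1 alone at P0 (24 of 55) and P12 (61 of 152). In the adult Etv1 with Shox2 led (56 of 208), also in cluster 4 (15 of 28). Runx3, Etv1, Maf and Shox2 were then the combination of 16 adult neurons, and the 5-gene combination was found in 3.

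**Figure D5:**
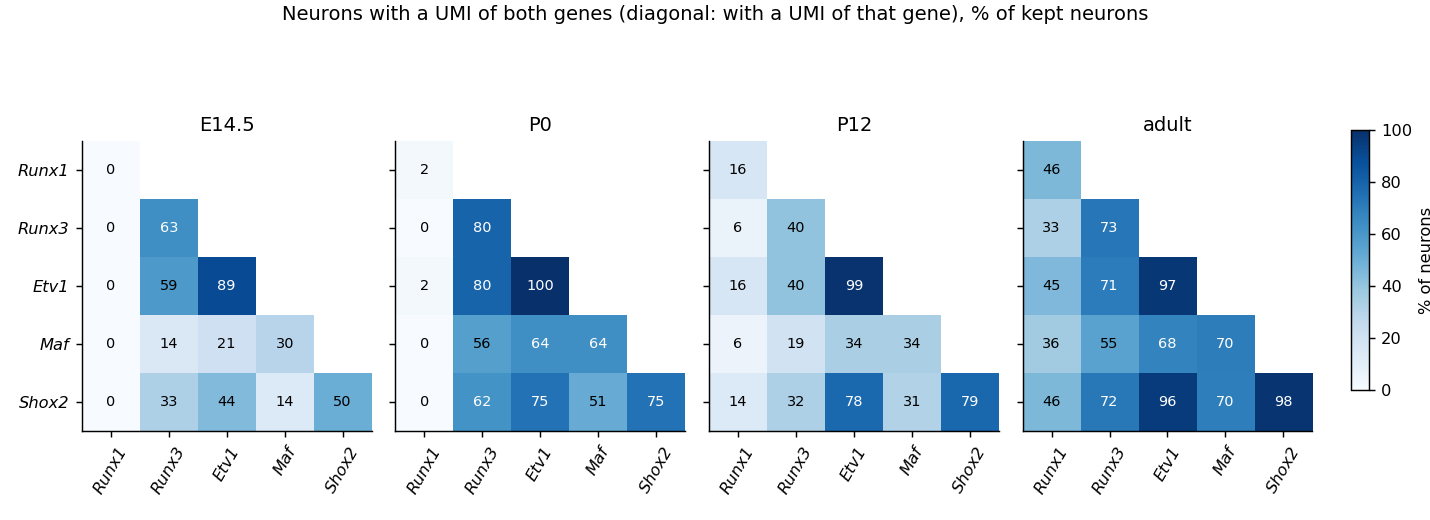
Share of kept neurons (%, colour scale and printed values) with at least 1 UMI of both genes, for each pair of Runx1, Runx3, Etv1, Maf and Shox2 at the 4 stages, with the share that had at least 1 UMI of each gene on the diagonal. Stages differ in depth. Maf and Shox2 are joint in 69.7% of adult neurons, and Runx1 is joint with no gene at E14.5.

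The genes whose levels ran most like a member's across the 17 clusters with at least 5 neurons were ranked by Pearson's r of the mean log2(CPM + 1), over 8837 genes that averaged at least 10 CPM over these clusters, leaving out predicted genes. The points share plates and depth, so these values are descriptions. For Runx1 they were Sun2 (r = 0.90), Magi1 (0.90) and Zfp352 (0.89), and for Runx3 Fam216a (0.82), Pgam1 (0.78) and Zfp827 (0.77). For Etv1 they were Strbp (0.92), Tshz2 (0.87) and Apoo (0.83), and for Maf Trib2 (0.86), Cotl1 (0.83) and Ipo7 (0.82). Shox2 had the closest followers, with Atp2b3 (0.97), Zfp365 (0.96) and Vwa7 (0.95). Among members, Shox2 and Runx1 had an r of 0.74 (Spearman's rho 0.76), which put Shox2 at rank 83 for Runx1 and Runx1 at rank 1132 for Shox2. Runx3 and Etv1 had an r of 0.39 but a rho of 0.79, and Etv1 and Maf an r of -0.20 and a rho of -0.03. Ranks by Spearman's rho kept 4 of the 15 genes.

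Other genes of the same families and of sensory neurons were followed as 5 lists, by their counts and by the called genes of each list with the largest fold changes. There were 25 such calls between stages, of which 15 were lost without some single plate and 3 with DESeq2, and 10 were kept under both. Of 46 between clusters or plate sets, 24 were lost without a plate and 15 with DESeq2, and 18 were kept, although no plate could be left out at E14.5 and P0. The genes named below are from those kept, a restriction made after their values were seen, and exceptions are marked.

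Of 11 listed partners of Runx factors 9 were tested, and at P0 against E14.5 1 was higher and 5 lower (5 called with DESeq2 and 3 to 7 when single plates were left out), where 27.8% of all genes were called. Their median log2 fold change was -1.43 beside 0.0072 for all genes. The Runx1 fusion partner and corepressor Runx1t1 was at -3.42 ± 0.58, and the Groucho corepressor Tle4 at -1.96 ± 0.37 (adjusted p 0.00077 and 0.0017, edgeR), the latter not called with E14.5 clusters 1 and 2 alone (0.061). From P0 to P12, 1 partner was higher and 1 lower of 9 (0 to 3 called without single plates), near the 18.1% called over all genes. The shared partner Cbfb was the higher one, at 0.99 ± 0.23, a call that was lost without either P0 plate (adjusted p 0.11 and 0.067). From P12 to the adult none of 9 was called by edgeR or DESeq2 (2 at an unadjusted p under 0.05), where 14.1% of all genes were. Between clusters, Runx1t1 was lower in E14.5 clusters 3 and 4 (-1.46 ± 0.15) and lower in E14.5 cluster 1 than in cluster 2 (-0.84 ± 0.14). On adult replicates 1 and 2, Runx1t1 (1.63 ± 0.23) and Cbfb (0.52 ± 0.12) were higher with 2 sums per plate, and Cbfb was not called with 1 sum per plate (adjusted p 0.073 and 0.095) or at the thinned depth (0.17).

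Of 15 other ETS genes 8 were tested between stages. At P0 against E14.5 1 was lower and at P12 against P0 1 was higher, against 27.8 and 18.1% of all genes. Without single plates either count fell to 0, and at P12 against P0 it was also 0 with DESeq2. From P12 to the adult none of 8 was called by edgeR or DESeq2 (1 at an unadjusted p under 0.05). No other ETS gene passed the count filter in the cluster fits. Of 10 Maf and CNC factors 4 were tested between stages, and 3, 3 and 1 of them were called at the 3 steps, against 27.8, 18.1 and 14.1% of all genes. When single plates were left out the counts fell to 2, 0 and 0, and at the thinned depth they were 2, 0 and 0. At P0 against E14.5, the repressor gene Bach2 was lower (-2.09 ± 0.39) and Nfe2l1 higher (1.08 ± 0.19).

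Of the 8 listed sensory receptors 6 were tested between stages, and 1, 2 and 2 were called at the 3 steps, against the same shares of all genes. The counts were 0, 2 and 3 with DESeq2 and 0, 1 and 0 at the thinned depth, and fell to 0, 1 and 1 when single plates were left out. Gfra3, which codes for a coreceptor of the GDNF family, was lower at P12 than at P0 (-3.83 ± 0.65), and its relative Gfra2 was lower in the adult than at P12 (-3.71 ± 0.51). Ret and Ntrk3 were the listed receptors tested between the P12 and the adult clusters. In P12 cluster 2, in which Maf was seen in every neuron, Ret (2.62 ± 0.45) and Ntrk3 (1.03 ± 0.13) were higher than in the other clusters, and Ntrk3 was higher than in cluster 3 of the same plates (1.01 ± 0.17). Ntrk3 was lower in P12 cluster 1 than in the others (-1.08 ± 0.15), again across the plate sets. In the adult, Ntrk3 was higher in cluster 1 than in cluster 5 (0.69 ± 0.14), a call that was lost at the thinned depth (adjusted p = 0.65), and Ret was lower in clusters 2 to 4 (-1.36 ± 0.21).

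Of 16 other sensory transcription factors 9 were tested between stages. At P0 against E14.5, 6 were lower and none higher (4 called at the thinned depth and 2 to 6 without single plates), where 27.8% of all genes were called, with Sox11 at -4.74 ± 0.44 and the POU factor Pou4f1 at -3.58 ± 0.74. At P12 against P0, 3 were lower and none higher (2 called with DESeq2 and 2 to 4 without single plates), where 18.1% of all genes were called, with Sox4 at -2.96 ± 0.34 and Sox11 at -2.03 ± 0.40. From P12 to the adult edgeR called none of 9 (3 at an unadjusted p under 0.05) and DESeq2 called 1, where 14.1% of all genes were called. Between clusters, the POU factor Pou4f3 was higher in E14.5 clusters 3 and 4 (2.83 ± 0.55) and in P0 cluster 2 (3.60 ± 0.38), and lower in adult cluster 1 than in cluster 5 (-4.50 ± 0.46). Cux2 was lower in E14.5 cluster 1 than in cluster 2 (-2.36 ± 0.24). On adult replicates 1 and 2, Cux2 (2.50 ± 0.22), Pou4f1 (2.06 ± 0.13) and Isl1 (0.56 ± 0.11) were higher with 2 sums per plate, and Isl1 was not called with 1 sum per plate in cluster 5 (adjusted p = 0.16) or at the thinned depth (0.15).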

How the data were processed

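The deposited files held UMI counts per gene and well for 13 plates, with the authors' annotation of the neurons kept and their clusters. Per the labels and the study's methods, the authors aligned reads with STAR to mm10 (GRCm38), split them by well barcode and collapsed them by UMI. They removed wells that held satellite cell transcripts and clustered each stage with hicat.

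Each neuron's counts were scaled to CPM and averaged by plate for levels. For tests, counts were summed by plate, or by plate and cluster with at least 2 neurons, and fitted with edgeR 4.0.16 (R 4.3.3, filterByExpr, TMM, quasi-likelihood, Benjamini-Hochberg over all genes tested, called at 0.05). The stage fit held all 13 plates and each cluster fit the plates of its stage, without a plate block. The edgeR fit between the adult plate sets held a term for the cluster, and its DESeq2 alternative did not. The code was tested on simulated data. Joint detection, thinning to 7000 UMIs and exact binomial intervals used Python 3.11.15 with scipy 1.17.1. Alternatives were DESeq2 1.42.0, its size factors, no count filter, thinned counts, other sums, a plate block, single plate sets, 1 sum per plate between the adult plate sets and leaving out each plate. Cluster sums of 1 plate share that plate, and their deviations correlated at 0.105 to 0.749.

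All 7 members are named throughout. From each list at most 3 called genes per comparison, those with the largest fold changes, could be named, and of these the text names those also called with DESeq2 and without each single plate. The 3 genes closest to each member are named. Members and lists were chosen with earlier results of these data known.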

Additional observations from a re-analysis of the deposited data

Results flagged for a closer look

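Among 40 groups of 4 or 5 plate values of the members, 1 held a value far from the others. Maf in adult cluster 3 was at 136 CPM on replicate 2, against 32.5 to 50.1 CPM on replicates 3 to 5. That sum rests on 2 neurons. Chance marks about 1 in 20 such groups.

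Etv4 appeared in wells that the annotation did not keep. Among wells with at least 2000 detected genes, 12 of 242 adult wells (4.96%) and 19 of 216 P12 wells (8.80%) outside the annotation held a UMI of Etv4, against 1 of 208 and 0 of 154 kept neurons. The P12 wells and neurons fell unequally on the plates. On replicates 1 and 2 it was 18 of 153 wells against 0 of 25 kept neurons, and on replicates 3 and 4 it was 1 of 63 against 0 of 129. In the adult it was 2 of 81 against 0 of 105 on replicates 1 and 2 and 10 of 161 against 1 of 103 on replicates 3 to 5. These wells include those set aside for satellite cell transcripts, and what they hold was not tested.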

How the results depend on the processing

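Of the alternatives to the 44 log2 fold changes reported for members, 475 kept direction and side of the threshold, 66 lost a call, 31 gained one and 7 reversed. Reversed values were Maf from E14.5 to P0 at 0.74 with E14.5 clusters 1 and 2 alone, Maf from P0 to P12 at -0.16 after thinning and -0.20 with P12 replicates 3 and 4 alone, Runx3 from P0 to P12 at 0.0015 and from P12 to the adult at -0.013 with P12 replicates 1 and 2 alone, Etv1 from P12 to the adult at 0.014 with P12 replicates 3 and 4 alone, and Runx1 in adult clusters 2 to 4 against 1 and 5, which ran from -0.98 to 2.00 when single plates were left out. Apart from what an alternative removes by its construction, the cause was not tested.

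The number of members called moved as follows. From E14.5 to P0 (1 member) it was 2 with DESeq2, with its size factors, after thinning and with E14.5 clusters 1 and 2 alone, 4 without the filter on low counts, and 0 to 2 when single plates were left out. From P0 to P12 (3) it was 1 after thinning and 0 to 3 with single plates left out. From P12 to the adult (2) it was 1 and 4 with either P12 plate set alone and 1 to 3 with single plates left out. The all-gene count of this step also moved strongly with either P12 plate set alone, as given below. For any P0 cluster difference (0) it was 1 without the filter. For any P12 cluster difference (4) it was 2 after thinning and 2 to 3 with single plates left out. For P12 clusters 1, 2 and 4 (2, 4 and 1) it was 1, 2 and 0 after thinning, 0 for cluster 4 with DESeq2, and 1 to 3, 0 to 1 and 0 to 2 for clusters 1, 3 and 4 with single plates left out. Between P12 clusters 1 and 4 (1) it was 0 with DESeq2 and after thinning and 0 to 1 with single plates left out, for cluster 5 against these (2) 1 after thinning and 1 to 2 with single plates left out, and between clusters 2 and 3 (2) 1 with DESeq2, without the filter and with sums of at least 4 neurons, 0 after thinning and 1 to 2 with single plates left out. For any adult cluster difference (2) it was 1 after thinning and 1 to 2 with single plates left out, between clusters 1 and 5 (1) 2 without the filter and with either plate set alone, 0 after thinning and 0 to 1 with single plates left out, for clusters 2 to 4 (2) 1 after thinning and with replicates 1 and 2 alone and 0 to 2 with single plates left out, and between clusters 4 and 2 (0) 1 with DESeq2 and 2 without the filter.

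The plate as a replicate block pairs cluster sums of 1 plate. With it, 3 members were called in E14.5 clusters 3 and 4, 4 for any adult cluster difference, 3 between adult clusters 1 and 5, 3 in adult clusters 2 to 4 and 1 between clusters 4 and 2. It changed no other count of members. All-gene counts rose from 212 to 356 (E14.5, any difference), 58 to 97 (clusters 3 and 4), 16 to 36 (3 against 4), 60 to 186 and 243 to 390 (P12 clusters 1 against 4 and 2 against 3), 713 to 1181 (adult, any difference), 351 to 712 (clusters 1 and 5), 415 to 781 (clusters 2 to 4) and 10 to 53 (4 against 2). It could not be used between stages or across the P12 plate sets, which share no plate. Leaving out a plate was not possible in the E14.5 and P0 cluster fits, which then have no spread left.

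Joint detection in at least 50% of adult neurons was a summary over pairs. At full depth it held for Runx3 with Etv1, Maf and Shox2, for Etv1 with Maf and Shox2, and for Maf with Shox2. It held for 1 pair after thinning and for 3 with at least 2 UMIs of each gene. Of the 15 genes closest to members, 4 were kept by Spearman's rho and 9 with a pseudocount of 10. All-gene counts fell by more than 1.5 times after thinning from 3314 to 1543, 2162 to 688 and 1687 to 764 in the stage steps and from 1954 to 433 and 713 to 190 for any P12 and adult cluster difference. They rose from 1687 to 3070 with P12 replicates 3 and 4 alone and fell to 529 with replicates 1 and 2 alone. Between the adult plate sets, 1 sum per plate, a setting added after the data had been seen, gave 820 genes in cluster 1 and 485 in cluster 5 instead of 1413, and 2 members in each. DESeq2 called 107 genes for any E14.5 and 1190 for any P12 cluster difference. Thinning leaves few UMIs, and Runx1, Etv4 and Mafa were at or near the limit of detection in most fits.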

Other observations

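In the same wells outside the annotation, values are given by plate set, since 153 of the 216 P12 wells but 25 of the 154 kept P12 neurons were on replicates 1 and 2. Runx1 was seen in 44.4% of these wells on adult replicates 1 and 2 and 42.2% on replicates 3 to 5, beside 43.8 and 47.6% of the kept neurons. On P12 replicates 1 and 2 it was seen in 43 of 153 wells and 5 of 25 kept neurons, and on P12 replicates 3 and 4 in 5 of 63 wells and 20 of 129 kept neurons. At P0 it was seen in 7 of 92 wells (7.61%), beside 1.82% of the kept neurons.

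Maf was seen in 85.2% of these wells and 64.8% of the kept neurons on adult replicates 1 and 2, and in 73.9 and 75.7% on replicates 3 to 5. On P12 replicates 1 and 2 it was in 140 of 153 wells and 19 of 25 kept neurons, and on replicates 3 and 4 in 28 of 63 and 33 of 129. Runx3 was in 125 of 153 wells and 21 of 25 kept neurons on P12 replicates 1 and 2, and in 24 of 63 and 41 of 129 on replicates 3 and 4. None of these differences was tested. Mafa was at 0 in these wells too.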
